A study of Mus musculus with 14 samples.

Results

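The comparison set mouse embryonic fibroblasts carrying Cdk9-DN on day 5 after infection against the same kind of cells on day 4. It used the 2 Cdk9-DN libraries of day 5 and the 2 of day 4, which are 4 of the 14 libraries of the series, and the deposited FPKM values. FPKM are fragment numbers scaled by transcript length and by the mapped fragments of a library, so levels of different genes are on a per-length scale. Both groups listed 24309 of the 26962 genes listed in any library, and each gene listed in both was a member. All cells were of strain OG2/129SV, which carries a green fluorescent reporter under the Oct4 promoter. All were transduced with Oct4, Sox2, Klf4 and c-Myc and grown in embryonic stem cell medium with serum and LIF. In addition they received a control vector or Cdk9-DN, which the name describes as dominant negative. Control and Cdk9-DN cells were collected in 2 libraries each on days 4, 5 and 10, and in 1 library each on day 3. The labels call the cells reprogramming intermediates and name total RNA as the material. They do not say whether same-group libraries came from separate cultures, so p-values measure only the spread between libraries, which may be technical.

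The kinase Cdk9 works within P-TEFb. This complex lets RNA polymerase II leave its pause near the start of genes, and the 7SK complex with Hexim1 keeps it inactive. Short-lived transcripts such as immediate early genes and targets of serum, TGF-beta, YAP and SRF signalling are known to depend on this release. In fibroblasts, reprogramming factors are known to lower mesenchymal and contractile genes and to raise epithelial genes before the pluripotency network is established.

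The bounds deposited with each value imply a depth of 10.2 M and 11.9 M fragments in the day 4 libraries and 10.2 M and 12.4 M in the day 5 libraries. The 10 highest entries held 35% and 44.3% of the summed FPKM at day 4 and 64.1% and 66.1% at day 5, led by Mir5105 at 27265 and 51762 FPKM and then 145947 and 132663 FPKM (adjusted p = 0.302, not called). The part of these entries in the other genes' values was not tested, and the median difference over all genes tested was 0.00 on the log2 scale. Thy1, a fibroblast surface marker, stood at 73.3 FPKM in the 1 day 4 library that lists it and at 67.2 ± 1.98 FPKM (SD, n = 2) at day 5. Decorin (Dcn) was at 15.2 and 16.1 FPKM at day 4 and was higher, without a call, at day 5. Cdk9 was not analysed here, and Sox2, for which transduced and endogenous transcripts were not separated, went from 291 and 337 FPKM to 501 FPKM in 1 library (adjusted p = 0.124).

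Between day 4 and day 5, the response genes Ctgf, Cyr61 and Ankrd1 fell in Cdk9-DN cells, and Krt8, Cldn3 and Rnase1 rose. Of the 5906 genes tested, 194 were called at an adjusted p under 0.05 in limma, which is 3.28% of them. Of these, 79 (1.34%) were higher at day 5 and 115 (1.95%) were lower. The higher genes went from a median of 5.88 FPKM to 10.8 FPKM, and the lower genes from 26.8 FPKM to 15.4 FPKM. The steps were moderate: 18 genes rose and 21 fell by more than 1 on the log2(FPKM + 1) scale, and the median absolute step of the called genes was 0.65. Of the called genes, 149 were listed in all 4 libraries, and the day 4 and day 5 values overlapped in none of these. The same absence of overlap held for 2098 of the 4664 genes tested and listed in all 4 (45%). Among protein-coding genes 151 of 2737 were called (5.52%), and among processed pseudogenes 20 of 1438 (1.39%). Without 1 library the count fell to 38 (day 4 replicate 1), 64 (day 4 replicate 2), 44 (day 5 replicate 1) or 43 (day 5 replicate 2). Of the 41 named genes that were called and listed in all 4 libraries, 34 lost the call in at least 1 of these fits and 7 kept it, and none changed direction. The calls split 40.7% higher as deposited, 28.7% with median-of-ratios scaling and 21.7% after quantile normalization. The share was 57.5% of 40 calls when only these 4 libraries were fitted. In bulk RNA, fewer cells of a type and less RNA per cell cannot be told apart.

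**Figure D1:**
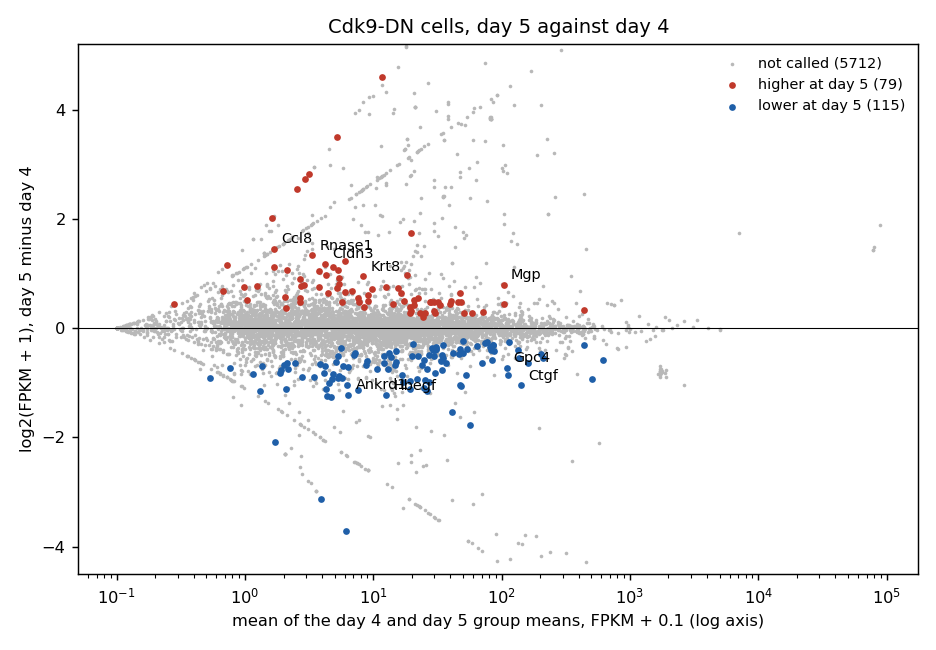
Difference between day 5 and day 4 in Cdk9-DN cells for each of 5906 genes, as log2(FPKM + 1), against the mean FPKM on a log axis. Red and blue points are the 79 and 115 genes called higher and lower; grey points are not called, 23 genes lie outside the vertical range, and diagonal streaks are genes listed at 0 in a library.

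Ctgf (chr10:24315248-24318489), a secreted matricellular protein and classical target of YAP and TGF-beta, went from 192 and 191 FPKM to 90.4 and 93.7 FPKM, a difference of -1.05 (SE 0.038, adjusted p = 1.67e-04). Replicates of Ctgf differed far less than the days did. Ankrd1, an ankyrin repeat protein also known as a YAP target, fell from 10.5 and 7.97 FPKM to 3.41 and 3.29 FPKM (-1.22, SE 0.165, adjusted p = 0.0173). It lost its call without day 4 replicate 1 (adjusted p = 0.0798) or either day 5 library (0.0815 and 0.0901).

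Of the 27 genes in the list of TGF-beta and YAP response genes, 14 were listed and 10 tested; 7 fell and 0 rose, and the median difference was -0.72 against 0.00 over all genes. When only the 4 Cdk9-DN libraries of days 4 and 5 were fitted, 2 of 9 tested were called lower and 0 higher. Besides Ctgf and Ankrd1, Cyr61, a close relative of Ctgf, fell from 199 and 193 FPKM to 126 FPKM in the 1 day 5 library that lists it (-0.64, adjusted p = 0.0216). Cyr61 lost its call without day 4 replicate 1 or replicate 2. Id1 and Id2, inhibitors of basic helix-loop-helix factors, fell by 0.86 and 0.77, and Id2 went from 42.7 and 43.8 FPKM to 25.3 and 24.5 FPKM. Id1 was listed in 1 library a day, at 146 FPKM and then 79.7 FPKM. Edn1, which encodes endothelin, fell from 11.2 and 10.5 FPKM to 6.73 and 6.19 FPKM. Id4 (-0.46) and Tgfb3 (-0.43) did not pass the test, and Tgfbi was at 0.08. Without day 4 replicate 1 the list had 3 called of 7 tested, and without the other libraries in turn 4 to 5 of 9 to 10.

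Promoter sequence from RefSeq (GRCm38.p6, the 250 bases before the start) is printed for 4 genes that fell. They were picked because their windows hold a motif, and a part of its factor in the falls was not tested. Capitals mark GGAATG, the core bound by TEAD, the DNA partner of YAP, in Ankrd1 and Cyr61, and the CArG box, bound by SRF, in Dusp5 and Fhl2. All are written 5′ to 3′ on the gene's strand, and the capitals in Cyr61 are the reverse complement of the motif.
Ankrd1 (chr19:36119845-36120094, minus strand): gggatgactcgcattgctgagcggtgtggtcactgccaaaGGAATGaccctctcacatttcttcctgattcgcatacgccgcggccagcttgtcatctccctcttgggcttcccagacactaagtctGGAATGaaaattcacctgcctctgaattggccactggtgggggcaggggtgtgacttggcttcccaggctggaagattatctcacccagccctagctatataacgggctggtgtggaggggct
Cyr61 (chr3:145649986-145650235, minus strand): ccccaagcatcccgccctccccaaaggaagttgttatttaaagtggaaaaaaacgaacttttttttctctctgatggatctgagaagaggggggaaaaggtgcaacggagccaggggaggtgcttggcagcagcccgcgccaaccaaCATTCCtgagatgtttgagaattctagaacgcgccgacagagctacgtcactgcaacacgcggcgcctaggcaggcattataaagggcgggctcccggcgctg
Dusp5 (chr19:53528895-53529144, plus strand): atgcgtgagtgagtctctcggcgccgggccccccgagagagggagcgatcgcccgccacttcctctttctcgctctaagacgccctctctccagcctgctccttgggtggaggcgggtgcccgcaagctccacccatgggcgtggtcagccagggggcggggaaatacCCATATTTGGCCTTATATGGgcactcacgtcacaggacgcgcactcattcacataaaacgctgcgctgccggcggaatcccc
Fhl2 (chr1:43196762-43197011, minus strand): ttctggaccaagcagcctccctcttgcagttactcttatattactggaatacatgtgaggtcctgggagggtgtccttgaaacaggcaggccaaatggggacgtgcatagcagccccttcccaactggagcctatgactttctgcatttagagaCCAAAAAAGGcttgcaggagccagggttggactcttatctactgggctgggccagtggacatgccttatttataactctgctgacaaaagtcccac

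The motifs in Ankrd1 begin 210 and 123 bases before the start, and that of Cyr61 lies 103 to 98 bases before it. Dusp5 holds a pair of CArG boxes side by side, 82 to 73 and 72 to 63 bases before the start. Fhl2 has a CArG box 96 to 87 bases before the first of its 2 annotated starts. Another lies 31 to 22 bases before the second start, whose window is not printed. Among other windows not printed, those of the fallers Cnn1, Fosl2, Klf6 and Gadd45b held neither GGAATG nor a CArG box. The fallers Lmod1 and Gpc4 held GGAATG, as did the riser Mcm3, and the window of the second start of Filip1l, a faller, held a CArG box. Such windows were found for 79 of the 115 genes called lower and 40 of the 79 called higher. GGAATG on either strand was in 15 of the 79 (19.0%) and 6 of the 40 (15.0%), against 14.3% of all 26734 genes in the table. The CArG box was in 5 of the 79 (6.33%) and 0 of the 40, against 1.64% of all genes. The AP-1 motif TGANTCA was in 6 of the 79 (7.59%) and 2 of the 40 (5.0%), against 7.81% of all. The E2F motifs TTTGGCGC and TTTCGCGC were in 1 and 2 of the 79 (1.27% and 2.53%) and 0 of the 40, against 0.49% and 0.303% of all. Each motif was searched on both strands. The 26734 genes include many that were not tested here, so these shares compare unlike sets of genes. No table entry was matched for Ctgf or Hbegf. A match describes the letters of the window and is not a measured binding site.

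Immediate early genes, the first transcriptional answer to serum and growth factors, moved the same way. Of 25 tested members (31 listed of 38), 8 fell and 0 rose, the median difference was -0.48, and 23 of the 25 differences were below 0. When only the 4 Cdk9-DN libraries of days 4 and 5 were fitted, 1 of 23 tested was called lower and 0 higher. Fosl2, an AP-1 subunit, was at 30.3 and 29.4 FPKM at day 4 and at 18.1 and 18.5 FPKM at day 5 (-0.68, SE 0.0422, adjusted p = 0.00469). Jun, its partner in AP-1, fell from 41.0 and 40.4 FPKM to 24.6 and 28.2 FPKM. The small GTPase gene Rhob fell from 32.6 and 37.1 FPKM to 24.1 and 24.2 FPKM. Klf6 (-0.61), Gadd45b (-0.50), Btg2 (-0.34), Ctgf and Cyr61 were the other called members. Junb (-0.13) and Egr1 (0.23) did not pass the test, so the fall did not extend to every AP-1 or Egr gene measured. Among phosphatases and inhibitors of MAP kinase signalling 1 of 6 tested was called: Dusp5, the nuclear ERK phosphatase, at 7.05 and 5.68 FPKM and then 2.95 and 3.26 FPKM (-0.84, adjusted p = 0.0135). Dusp5 lost its call without day 4 replicate 1 or either day 5 library, with differences of -0.97 to -0.70 over the fits without 1 library. Dusp6 stood at -0.01 and Spry4 at 0.26. Leaving out 1 library at a time left 3 to 5 immediate early genes called of 20 to 23 tested, with the lowest count, 3, without either day 4 library.

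Contractile and cytoskeletal genes followed. Of 9 tested genes of the cytoskeletal and SRF list (17 listed of 39), 3 fell, 0 rose, and all 9 differences were below 0. When only the 4 Cdk9-DN libraries of days 4 and 5 were fitted, 0 of 6 tested were called. Cnn1, the smooth muscle calponin, was at 26.8 FPKM in the 1 day 4 library that lists it and at 12.2 and 11.6 FPKM at day 5, a difference of -1.11 (adjusted p = 0.0176). Fhl2, a LIM-domain partner of SRF, went from 22.8 and 23.0 FPKM to 11.1 FPKM in 1 library (-0.98, adjusted p = 0.0472). Filip1l, a filamin-binding protein, went from 36.8 FPKM in 1 library to 16.6 and 15.4 FPKM (-1.15, adjusted p = 0.0426). Lmod1, an actin nucleator of smooth muscle, was at 7.70 and 6.52 FPKM and then at 3.53 and 3.07 FPKM (-0.91, adjusted p = 0.0131). Without day 4 replicate 2 or either day 5 library, 0 of 5 tested members of the list were called, and without day 4 replicate 1 it was 1 of 3. The mesenchymal list had 6 tested members, of which Cnn1 alone was called, and the mesenchymal transcription factors Snai1 (-0.07), Snai2 (-0.31), Twist1 (-0.27) and Twist2 (-0.50) did not pass the test. Snai1 was at 15.2 ± 2.35 FPKM (SD, n = 2) at day 4 and at 14.4 ± 1.59 FPKM (SD, n = 2) at day 5.

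**Figure D2:**
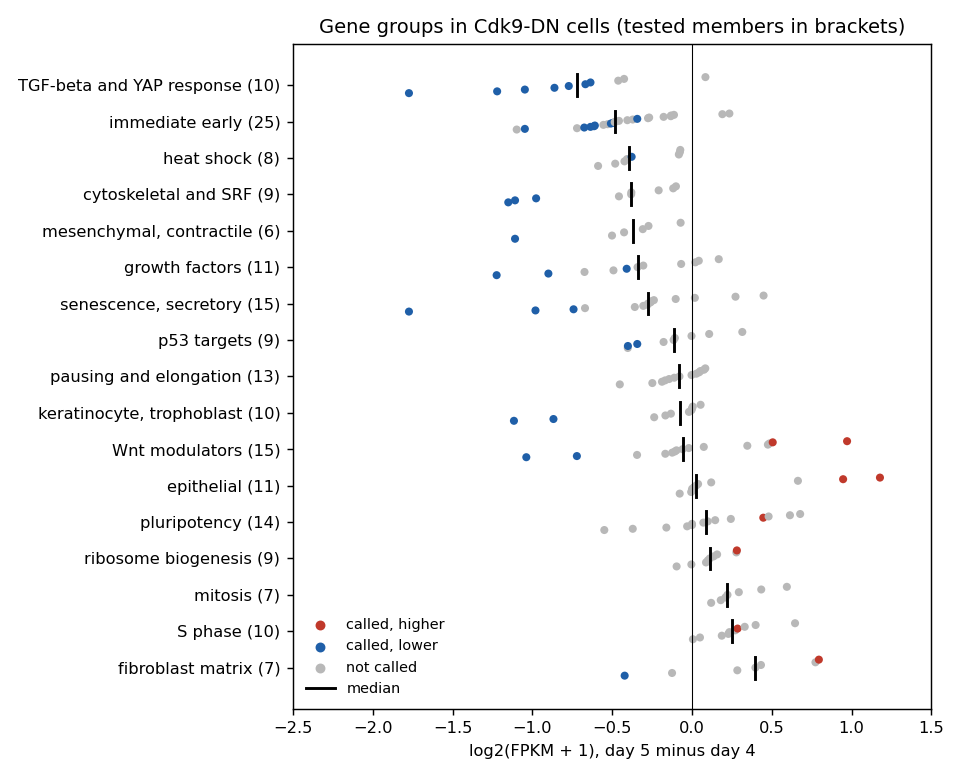
Day 5 minus day 4 differences, log2(FPKM + 1), of the tested members of 17 gene groups in Cdk9-DN cells; points are genes (red called higher, blue called lower, grey not called) and bars are group medians. The TGF-beta and YAP group has 7 of 10 members called lower and the lowest median, -0.72.

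Ligands and modulators of signalling moved in both directions. Hbegf, a ligand of the EGF receptor, went from 17.9 FPKM in 1 day 4 library to 6.84 and 7.31 FPKM at day 5 (-1.22, SE 0.0863, adjusted p = 0.0068). Grem1, a BMP antagonist, fell from 17.7 and 16.5 FPKM to 13.0 and 12.2 FPKM. Both were among the 3 called of 11 tested growth factor genes (median -0.34), while Bmp2 (0.04) and Bmp7 (-0.07) were not called. Without day 4 replicate 1, 0 of 9 were called, and without the other libraries 1 to 2. In the Wnt list 2 of 15 tested genes rose and 2 fell, but fits without 1 library called 0 risers, or 1 without day 4 replicate 2, and 1 to 2 fallers. The ligand Wnt4 went from 8.68 and 8.57 FPKM to 3.74 and 3.64 FPKM (-1.04, adjusted p = 0.00364), and the cell-surface glypican Gpc4 from 136 FPKM in 1 library to 83.4 and 81.1 FPKM (-0.72, adjusted p = 0.00169). The receptor Fzd5 rose from 2.22 and 2.77 FPKM to 5.6 and 6.07 FPKM (0.97, adjusted p = 0.0116). Sfrp1, a secreted inhibitor of Wnt, rose from 14.6 and 13.8 FPKM to 20.5 and 20.6 FPKM (0.51, adjusted p = 0.032). In the fits without 1 library Sfrp1 lost the call each time (adjusted p = 0.114 to 0.142), and Fzd5 lost it in each but the fit without day 4 replicate 2 (0.0509 to 0.070). The other receptors tested, Fzd1, Fzd2, Fzd4, Fzd7 and Fzd8, lay between -0.34 and -0.02 and were not called. When only the 4 Cdk9-DN libraries of days 4 and 5 were fitted, 0 of 14 tested Wnt genes and 0 of 11 growth factor genes were called.

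Among other named fallers, Ptx3, a secreted pentraxin, went from 37.9 and 30.2 FPKM to 16.2 and 14.7 FPKM (-1.09, adjusted p = 0.0169). Basp1, a membrane-bound signalling protein, went from 65.8 and 70.7 FPKM to 36.8 and 37.4 FPKM (-0.86). Ppap2a, a lipid phosphate phosphatase, fell from 63.4 and 64.9 FPKM to 31.1 and 30.5 FPKM (-1.03), and Plac8 from 10.6 and 10.9 FPKM to 4.61 and 4.17 FPKM (-1.12). Basp1, Ppap2a and Plac8 lost their calls in each fit without 1 library, and Ptx3 in each but that without day 4 replicate 2. In the senescence and secretory list 3 of 15 tested genes fell and 0 rose, among them Plaur, the urokinase receptor, and Cdkn2b, a cyclin-dependent kinase inhibitor. Plaur was listed in 1 library a day, at 36.4 FPKM and then 18.0 FPKM. Ccl2 (-0.28), Il6 (-0.67) and Cdkn2a (0.27) did not pass the test. Among p53 targets 2 of 9 fell, Plk2 (-0.40) and Btg2, and of the heat shock list 1 of 8, Hspb8 (-0.38), although all 8 heat shock differences were below 0. Over all genes tested 1.95% were called lower, and among protein-coding genes 95 of 2737 were. So few calls say little about lists this small.

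Stratified epithelial genes were among the fallers too. Krt6a, a keratin of activated keratinocytes, went from 6.13 and 6.16 FPKM to 2.53 and 2.08 FPKM (-1.12, adjusted p = 0.034). Sfn, the 14-3-3 sigma protein of epithelia, went from 7.42 and 6.90 FPKM to 3.32 and 3.62 FPKM (-0.87, adjusted p = 0.00398). Sprr2b, a cornified envelope protein, went from 6.46 and 6.51 FPKM to 2.86 and 3.02 FPKM (-0.93, adjusted p = 0.0216). Krt6a and Sprr2b lost their calls in each fit without 1 library, while Sfn kept its call in each. Of the 10 tested keratinocyte and trophoblast markers 2 fell and 0 rose. Krt14, which defines basal keratinocytes, was at 10.6 and 10.5 FPKM and then 11.1 and 10.8 FPKM (0.05). The summed level of the 13 keratinocyte and trophoblast markers listed in all 4 libraries was 71.8 and 69.6 FPKM, then 64.8 and 60.9 FPKM, and Cdx2 and Krt4 were at 0 in all 4. The part of such cells in these falls was not tested.

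Krt8 and Cldn3, which mark simple epithelia, went the other way. Krt8 (chr15:101827142-101834773, mm9), the keratin of simple epithelium, rose from 4.70 and 6.0 FPKM to 11 and 11.3 FPKM (0.95, SE 0.093, adjusted p = 0.00945). Cldn3, a tight junction claudin, rose from 2.05 and 2.12 FPKM to 7.69 and 4.59 FPKM (1.18, SE 0.185, adjusted p = 0.0239). Its day 5 libraries lay far apart, but both were above both day 4 libraries. These were the 2 called of 11 tested epithelial genes (20 listed of 35), whose median was 0.03. When only the 4 Cdk9-DN libraries of days 4 and 5 were fitted, 0 of the 11 were called. Krt18, the usual partner of Krt8, was at 0.709 ± 0.122 FPKM (SD, n = 2) and then at 0.729 ± 0.219 FPKM (SD, n = 2), with a difference of 0.01 whose sign turned with the scaling. Epcam was at 0.330 and 0.203 FPKM and then at 0.934 and 1.07 FPKM (0.66, adjusted p = 0.14), with no overlap but no call. Krt8 lost its call without day 5 replicate 1 (adjusted p = 0.0519) or replicate 2 (0.0601), and Cldn3 without day 4 replicate 1 (0.115) or replicate 2 (0.0974).

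In the pluripotency list 1 of 14 tested genes was called, against 3.28% of all genes tested and 5.52% of the protein-coding ones. Nr0b1, a nuclear receptor of the embryonic stem cell network, had a listed 0 in each day 4 library and then reached 0.374 and 0.351 FPKM (adjusted p = 0.0472). Both day 5 values lie under the minimum of 1 FPKM that the filter asks of other libraries, and the call was lost in each fit without 1 of the 4 libraries (adjusted p = 0.154 to 0.197). Nanog was at 0.801 ± 0.154 FPKM (SD, n = 2) and then at 1.13 ± 0.0475 FPKM (SD, n = 2), a difference of 0.24 that did not pass (adjusted p = 0.51). Zfp42 (0.10), Tdgf1 (-0.03) and Utf1 (-0.16) were not called.

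The 12 largest rises were ranked among called genes that all 4 libraries list, that do not overlap between the days and whose higher mean reaches 5 FPKM. Rnase1, a secreted ribonuclease, rose from 1.81 and 1.07 FPKM to 5.26 and 4.87 FPKM (1.33, SE 0.199, adjusted p = 0.0216). Nt5e, the ectonucleotidase CD73 of mesenchymal cells, rose from 2.94 and 2.32 FPKM to 7.06 and 6.65 FPKM (1.12, SE 0.116, adjusted p = 0.0185). Lypd2, a GPI-anchored protein by its family, rose from 2.71 and 3.37 FPKM to 7.77 and 7.12 FPKM (1.07, SE 0.114, adjusted p = 0.00729). Penk, the precursor of enkephalins, rose from 7.98 and 6.17 FPKM to 13.0 and 11.3 FPKM (0.71), and Egln3, the hypoxia-induced prolyl hydroxylase, from 8.93 and 9.21 FPKM to 15.8 and 16 FPKM (0.75, adjusted p = 0.0287). Egln3 was the 1 called of 6 tested glycolysis and hypoxia genes, where Bnip3 (0.04) and Ddit4 (-0.27) were not called. Tppp3, a tubulin-binding protein, rose from 35 and 38.5 FPKM to 58.0 and 58.3 FPKM (0.65, adjusted p = 0.0216). Serpina3n (0.92), Egfl6 (0.81) and F2rl1 (0.67), which encode a serpin, an EGF-like matrix protein and a protease-activated receptor, completed this set with Fzd5, Krt8 and Cldn3. Nt5e, Egln3, Tppp3, Egfl6 and F2rl1 lost their calls in each fit without 1 library. Rnase1 and Penk lost theirs in each but the fit without day 4 replicate 1. Ccl8 and Zfp90 lay outside these limits. Ccl8, a chemokine, rose from 0.282 and 0.485 FPKM to 2.80 and 2.75 FPKM (1.45, adjusted p = 0.0058). Zfp90 (adjusted p = 0.019) was listed at 0 in the 1 day 4 library that lists it and at 6.09 FPKM in 1 day 5 library.

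**Figure D3:**
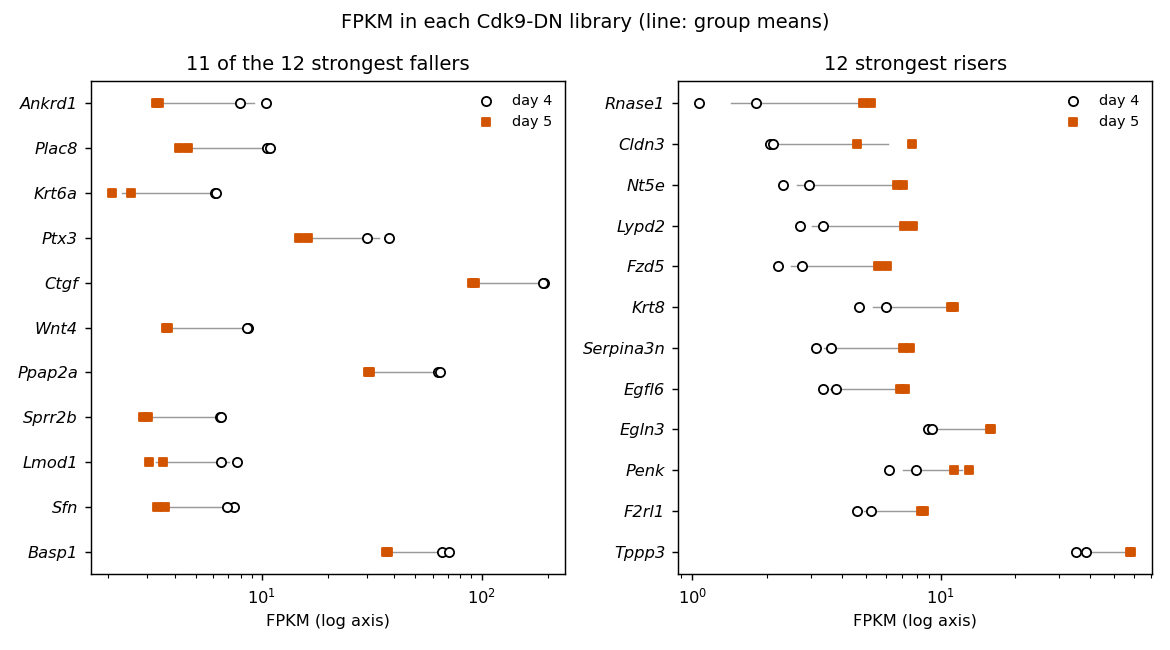
FPKM on a log axis in each Cdk9-DN library for 11 of the 12 largest falls (left) and the 12 largest rises (right) among called, named genes listed in all 4 libraries, without overlap of the days and with the higher mean at 5 FPKM or above; open circles are day 4, filled squares are day 5, and a line joins the group means. The days do not overlap in any gene shown because the rule required it.

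Of 7 tested fibroblast matrix genes 5 were higher at day 5, and 1 was called in each direction. Mgp, a matrix protein that binds BMP and mineral, rose from 72.4 and 79.0 FPKM to 132 FPKM in 1 library (0.79, adjusted p = 0.0216), and Timp3, a metalloproteinase inhibitor, fell from 100 FPKM to 74.5 FPKM with 1 library a day (-0.42, adjusted p = 0.0427). With 1 library a day, the p-value of Timp3 holds no spread from either of these groups. The other 5 of the 7 tested genes were not called: Lum (0.77), Dcn (0.43), Mmp2 (0.40), Pdgfra (0.28) and Thy1 (-0.13). The median of the 7 was 0.40, against 0.00 over all genes tested. At an unadjusted p under 0.05 in limma 4 were higher and 1 was lower.

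Of 10 tested S phase genes (median 0.25) 1 was called: Mcm3, a subunit of the replicative helicase, at 46.1 and 46.1 FPKM and then at 56.6 and 56.2 FPKM (0.29, adjusted p = 0.0264). Its call was lost in each fit without 1 library (adjusted p = 0.112 to 0.138), and the list had 0 called with median-of-ratios scaling and with quantile normalization. Mcm2 went from 45.0 and 46.9 FPKM to 58.0 FPKM in 1 library (0.33, adjusted p = 0.0878). Of 7 tested mitosis genes (median 0.22) 0 were called in limma, with 2 at an unadjusted p under 0.05. Of 9 ribosome biogenesis genes 1 rose, Rrs1 (0.28), and of 4 cell cycle regulators 1 fell, Cdkn2b. Over all genes tested 1.34% were called higher and 1.95% lower, and among the 2737 protein-coding genes 56 were higher and 95 lower. A single call therefore says little about a list.

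The transcription machinery that Cdk9 acts on showed no called gene. Among 13 tested genes of pausing and elongation (24 listed of 57), 0 were called in limma and 3 were lower at an unadjusted p under 0.05, with a median of -0.08. Hexim1, the inhibitor of P-TEFb, was at 10.5 ± 0.0457 FPKM (SD, n = 2) and then at 9.23 ± 0.342 FPKM (SD, n = 2), a difference of -0.17 (adjusted p = 0.392). Ell2, an elongation factor, was at 8.36 and 7.61 FPKM and then at 5.48 and 5.65 FPKM (-0.45, adjusted p = 0.12), without overlap and without a call. Oxidative phosphorylation (23 tested), interferon response (6), endoplasmic reticulum chaperones (6), cholesterol synthesis (4) and metallothioneins (4) also had 0 called in limma, with 1, 2, 1, 1 and 2 genes at an unadjusted p under 0.05. The ATF4 stress list had 1 of 9, Chac1 (-0.82). By symbol class, 1 of 57 histone genes fell, Hist1h2bc, a member of a multigene family whose reads may be shared. Cytosolic ribosomal proteins (11 tested), mitochondrial ribosomal proteins (24), Hox genes (6), snoRNA genes with a Snora, Snord or Scarna symbol (68) and microRNA genes by symbol (34) had 0 called, with 0, 5, 1, 6 and 0 genes at an unadjusted p under 0.05. Of all 190 tested entries annotated as snoRNA, 1 was called, lower (SNORD70). Of 74 zinc finger genes Zfp90 alone was called, and of 6 chemokines Ccl8. Over all genes tested 3.28% were called, and among protein-coding genes 5.52%, so the single calls in these lists say little about a list.

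Markers of other cell types were summed over the members that all 4 libraries list, so the sums leave out genes that a library does not list. The neural sum leaves out Nes (86.5, 54.4 and 55.6 FPKM where listed) and Gap43 (24.2, 23.6 and 18.7 FPKM), and the endothelial sum leaves out Tek (9.74 and 14.1 FPKM). Myod1, Myog and Myf5, which define muscle, were at 0 in all 4 libraries, as were Sox17, Foxa2 and Afp of endoderm. The 5 endothelial markers listed in all 4 libraries summed to 0.107 and 0.302 FPKM, then to 0.336 and 0.317 FPKM. The 10 macrophage and blood markers listed in all 4 summed to 5.99 and 6.10 FPKM and then to 2.77 and 3.44 FPKM, and Lyz2 (-0.67) was called lower. The 10 neural markers listed in all 4 summed to 6.41 and 7.12 FPKM and then to 8.91 and 9.32 FPKM. Insm1, a neuroendocrine transcription factor, rose (0.80) and Nes, the intermediate filament nestin, fell (-0.64). Lyz2 and Insm1 lost their calls in each fit without 1 library, and Nes lost its call without either day 5 library. The 10 erythroid markers listed in all 4 summed to 15.6 and 17.0 FPKM and then to 15.4 and 18.8 FPKM, those of muscle (8) to 5.37 and 3.71 FPKM and then 2.02 and 3.12 FPKM. Cartilage, bone and fat markers (10) ranged from 4.31 to 4.91 FPKM over the 4 libraries and endoderm and mesoderm markers (10) from 1.26 to 1.95 FPKM. In these 4 lists 0 of 6 tested genes were called in limma and 1, Gata6 (-0.26), had an unadjusted p under 0.05; the 1 endothelial gene tested, Cldn5, was not called.

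The same step was measured with the control vector, in libraries that are not shared with the Cdk9-DN comparison. Both comparisons take the spread of a gene from the same fit of 12 libraries, so their calls are not independent. The control step bears on whether the step depends on which vector the cells carry. With the control vector 299 of 5951 genes were called (5.02%), 109 higher (1.83%) and 190 lower (3.19%). Of the 188 genes called with Cdk9-DN and tested in both, 140 were called in the same direction with the control vector, which is 72.2% of the 194 and 46.8% of the 299. Of the 76 higher genes 74 had the same sign, and of the 112 lower genes 111 did, against 66.3% of all 5694 genes tested in both. Across these 5694 genes, which are not independent replicates, the steps correlated with a Pearson r of 0.18 and a Spearman rho of 0.44, and across the 188 called genes with an r of 0.74.

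The difference of the steps itself was called for 6 of 5694 genes (0.105%), 3 in each direction (0.0527% each), and 247 (4.34%) had an unadjusted p under 0.05. All 6 rested on values of exactly 0 in at least 1 group, and with zeros treated as missing limma called 0, with 221 at an unadjusted p under 0.05. For genes described above, the difference, Cdk9-DN minus control, was 0.11 for Ctgf (95% interval -0.02 to 0.24), 0.20 for Ankrd1 (-0.35 to 0.75), -0.09 for Krt8 (-0.41 to 0.23) and 0.18 for Cldn3 (-0.44 to 0.79). Penk, at 5.95 FPKM and then 7.31 FPKM with the control vector, had a difference of 0.45 (0.05 to 0.84, adjusted p = 0.975). Sfn had -0.27 (-0.54 to -0.01, adjusted p = 0.975). Hexim1 had -0.23 (-0.57 to 0.10). The intervals also left out 0 for Nr0b1 at -0.70 (-0.99 to -0.40, adjusted p = 0.384), Thy1 at 0.33 (0.14 to 0.53, adjusted p = 0.925) and Zfp90 at 2.90 (2.33 to 3.48, adjusted p = 0.246), a gene listed at 0 in some libraries. So did those of Gpc4 at 0.17 (0.03 to 0.31) and Timp3 at 0.25 (0.08 to 0.43). Mgp at 0.32 (0.03 to 0.61) and Serpina3n at 0.37 (0.02 to 0.71) were alike, each of these with an adjusted p of 0.975 in limma. The intervals cover single genes and are not adjusted, and a difference that was not called is not shown to be absent.

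**Figure D4:**
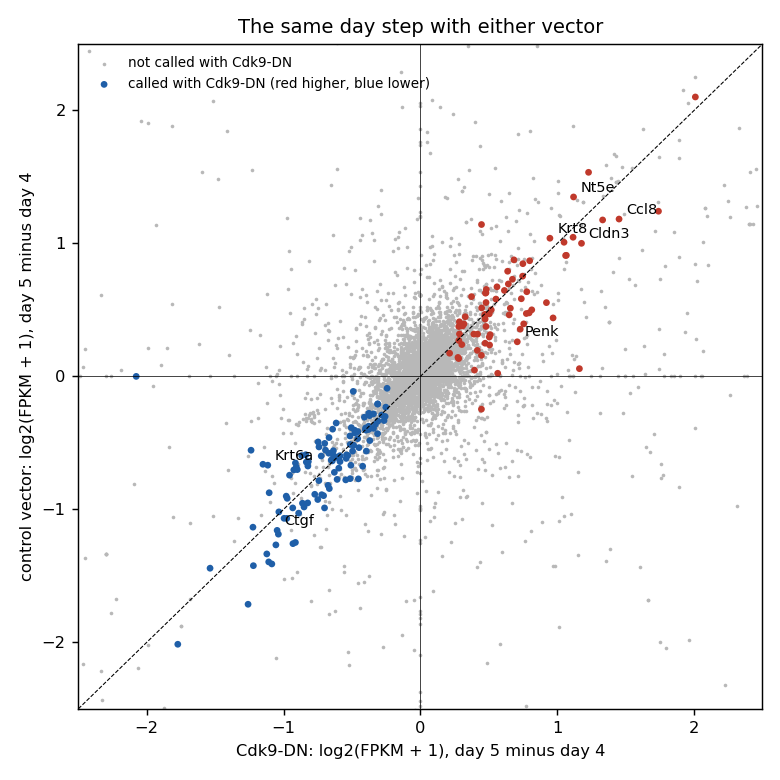
Day 5 minus day 4 difference, log2(FPKM + 1), with the control vector against that with Cdk9-DN, for genes tested in both; coloured points are the genes called with Cdk9-DN (red higher, blue lower), the dashed line marks equal steps, and the axes end at 2.5, beyond which some genes lie. Of the 188 coloured genes, counting any outside the axes, 185 have the same sign with both vectors.

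The days around this step place it in the course of the Cdk9-DN cells. The comparison of day 10 with day 5 shares the day 5 libraries, so its values are only set beside those above. Ptx3 was at 54.3 FPKM in the day 3 library and at 1.7 FPKM in both day 10 libraries, and Basp1 was at 119 FPKM and then at 11.6 and 12.3 FPKM, so day 4 and day 5 lie between those values in both genes. Lmod1 likewise was at 15.3 FPKM at day 3 and at 0.651 and 0.600 FPKM at day 10. Ctgf did not follow that course: it stood at 196 and 193 FPKM at day 10, close to its day 4 values. Sfn, which fell between day 4 and day 5, was at 37.6 and 36.2 FPKM at day 10, above every earlier Cdk9-DN library, and Sprr2b was at 148 FPKM in 1 library. Among the risers, Krt8 was at 3.03 FPKM at day 3 and at 97.9 and 98.2 FPKM at day 10, Cldn3 at 0.583 FPKM and then 29.1 and 24.9 FPKM. Lypd2 was at 7.03 and 6.86 FPKM at day 10, near its day 5 level. Day 3 had 1 library and was not tested.

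**Figure D5:**
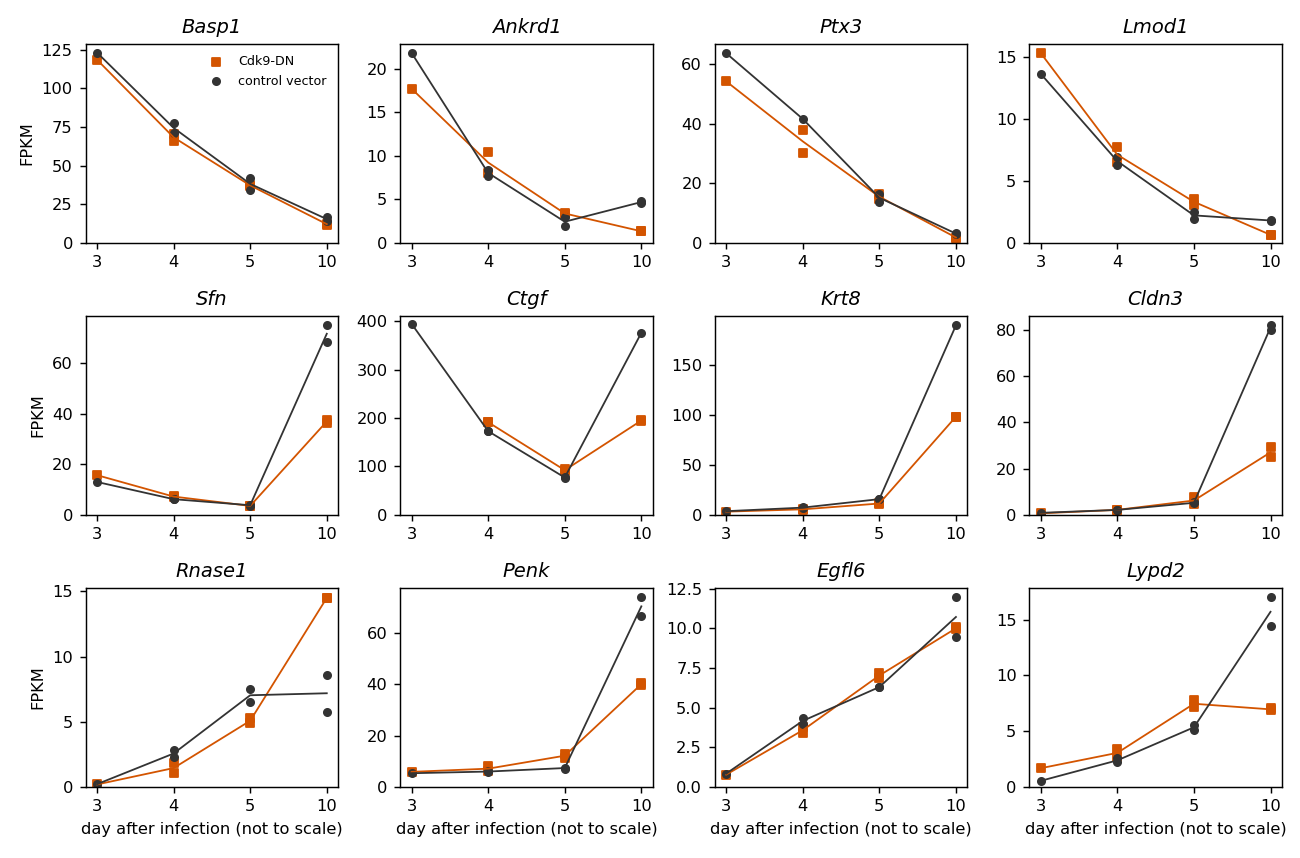
FPKM of named genes at days 3, 4, 5 and 10 (days not to scale, each panel with its own axis from 0); squares are Cdk9-DN libraries, circles are control libraries, lines join group means, and a missing point means that a library does not list the gene. Ctgf and Sfn fall between day 4 and day 5 and are higher at day 10; the means of Krt8 and Cldn3 are higher at each later day.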

How the data were processed

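Per the submitters' processing notes the tools were CASAVA 1.8.2, TopHat2 2.0.10 and Cufflinks 2.2.1, with builds mm9 and NCBIM37. The authors deposited 1 table of FPKM values with bounds per library; replicates were not pooled. A gene a library does not list was treated as missing, never as 0. The 16 identifiers with several entries were summed and 1 failed entry was left out. Depth over all 14 libraries came to 8.79 to 13.0 M fragments if the deposited bounds hold only counting error, an assumption that was not tested.

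The 12 libraries of days 4, 5 and 10 were fitted in limma 3.58.1 (R 4.3.3) on log2(FPKM + 1) as 6 group means, with an intensity trend of the variance and 1.15 prior degrees of freedom. Genes needed at least 1 FPKM in at least 2 of the 12 libraries and 2 residual degrees of freedom. For genes listed in 1 Cdk9-DN library a day, such as Timp3, Id1, Plaur and Zfp90, the spread came only from other groups and the prior. Of 7460 passing genes, 6334 were listed in both groups and 5906 were tested. P-values are two-sided and adjusted by Benjamini and Hochberg over all genes tested, called under 0.05. A fold change on this scale understates low genes. The procedure was tested on simulated data, and other steps used Python 3.11.15 with pandas 2.3.3.

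Named genes were the 12 highest and the 12 lowest of the called genes, among those without overlap of the days and with 5 FPKM or more in the higher group mean, plus up to 4 called members of each of 42 gene lists, up to 5 genes each way for the difference of steps, and 14 genes given by name, of which Myc and Cdh2 were not tested. Unnamed gene models and loci under 300 bases were passed over; 45 called genes were of that kind. Lists and genes were chosen with earlier results of these data known. Other genes in a list are given by their values. Some results are not reported here.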

Additional observations from a re-analysis of the deposited data

Results flagged for a closer look

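The step from day 4 to day 5 differed between the vectors in 6 genes by the test of the difference in limma, and each involves groups listed at exactly 0. Pvrl2 (nectin-2, a cell adhesion protein) differed by 4.29 (SE 0.327, adjusted p = 0.00947). It was at 30.9 and 36.3 FPKM and then at 16.8 and 29.3 FPKM with Cdk9-DN, and at 27.5 and 28.5 FPKM and then listed at 0 in both day 5 libraries with the control vector. The small RNA entry U6 on chromosome 10 differed by -5.55, since it was listed at 0 in all Cdk9-DN libraries and at 39.1 and 53.8 FPKM in control cells at day 5. AC165279.1 differed by -5.02 for the same kind of values. The antisense gene Gm17035 differed by -4.15, being listed at 0 in both Cdk9-DN libraries of day 5 and at 11.1 to 13.1 FPKM at day 4. The other two were 9330151L19Rik (2.55, at 4.87 FPKM in a single Cdk9-DN library of day 5) and SNORA35 (4.03, above 0 only in control cells at day 4).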

How the results depend on the processing

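With Cdk9-DN, 194 genes were called, 71 without a filter on low values, 46 among genes listed in all 12 libraries, 306 without loci under 300 bases and 40 when only the Cdk9-DN libraries of days 4 and 5 were fitted. The count was 117 without the day 10 libraries, an alternative chosen after seeing the data, and 38 to 64 with 1 library left out. For the difference of steps, 6 genes were called, 32 without the filter, 0 with zeros as missing, 17 with only the groups of the contrast, 17 without day 10 and 9 to 15 with 1 library left out. With the control vector, 299 were called, 147 without the filter, 86 among genes listed in all 12 libraries, 26 with only the groups of the contrast, 176 without day 10 and 43 to 125 with 1 library left out. Fewer genes or libraries enter several of these fits; otherwise the cause was not tested.

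Replicate numbers did not pair the libraries: deviations of same-numbered libraries of day 4 and day 5 correlated at 0.03 over 4664 genes. With the replicate number as a block, 88 genes were called with Cdk9-DN, 155 with the control vector and 6 for the difference of steps.

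Of the 55 named genes that were called, none changed sign in any alternative run. Of the 41 listed in all 4 libraries, 7 kept the call in each fit without 1 library, among them Lypd2, Ctgf, Wnt4, Sfn, Fosl2 and Ccl8. The other 14 are not listed in some of these libraries, so a fit without such a library removes none of their values. The 12 sign changes were all in genes that were not called. With median-of-ratios scaling Krt18 was at -0.0032 and Scd1 at -0.044, with quantile normalization they were at -0.013 and -0.073, and with the replicate block Scd1 was at -0.0037. Over the fits without 1 library, Krt18 ranged from -0.12 to 0.14 and was at -0.060 in another fit that changed its sign, Snai1 ranged from -0.22 to 0.077 (also 0.034), Scd1 from -0.0025 to 0.018, Cldn5 from 0 to 0.099 and Hbb-y from -0.0038 to 0.26.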

Other observations

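The genes here lie outside the naming rule and were chosen after their values were seen. The connexin gene Gjb5 and the epithelial genes Krt20 and Cdsn were among the called fallers. Gjb5 went from 5.53 and 5.25 FPKM to 2.32 and 2.92 FPKM (-0.82, adjusted p = 0.041 in limma). Krt20, an epithelial keratin, went from 3.21 and 2.94 FPKM to 0.846 and 0.940 FPKM (-1.11), and Cdsn, which encodes corneodesmosin, fell by 0.71. F3, the tissue factor that starts coagulation, went from 65.5 and 56.9 FPKM to 20.4 FPKM in 1 library (-1.54, adjusted p = 0.00469). The smooth muscle and sarcomere-linked genes Myh11 (-0.64), Jph2 (-0.89) and Flnc (-0.54) were called lower.

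Fras1 and Frem2, whose proteins form a complex in the basement membrane, were both called higher. Fras1 went from 1.88 and 2.11 FPKM to 3.21 and 3.16 FPKM (0.48, adjusted p = 0.0287), and Frem2 from 0.242 and 0.172 FPKM to 0.983 and 0.893 FPKM (0.68, adjusted p = 0.0366). With the control vector both were called higher too, by 0.65 and 0.88. The Frem2 values given here all lie under the minimum of 1 FPKM, so it passed the filter through libraries outside this comparison. Skp2, a subunit of a ubiquitin ligase of the cell cycle, went from 11.7 and 11.8 FPKM to 16.3 and 16.5 FPKM (0.45, adjusted p = 0.0259).

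Several called entries are copies of other genes, so their reads may be shared. Hsp25-ps1 (-0.67), Cd63-ps (-0.34) and Pgk1-rs7 (-0.31) were called lower and Pcna-ps2 (0.50) higher, and 4 called entries had values identical to another called entry. SNORD70 was called lower (adjusted p = 0.0427) from 682 and 97.9 FPKM to a listed 0 in 1 library.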
